A study of Mus musculus with 6 samples.

Results

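The collagen genes are described here in the cochlea and the vestibule of the newborn mouse. The members are 43 genes taken by symbol, all of which matched a single Ensembl gene among the 39179 genes listed in the count tables. They were sorted into 5 classes, with 11 fibrillar collagens, 8 collagens of basement membranes, 9 FACIT collagens (fibril-associated collagens with interrupted triple helices), 4 transmembrane collagens and 11 others. Of the 43, 40 passed the filter of at least 1 CPM (count scaled to a common library size, per 1e6 counts) in 3 or more libraries and were tested. The other 3 members, Col19a1, Col17a1 and Col6a5, did not.

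Collagens are secreted or membrane-bound proteins built from 3 chains that wind into a triple helix, which needs a glycine at steps of 3 residues along each chain. Fibrillar collagens assemble into the fibrils of cartilage, bone and connective tissue, FACIT collagens sit on the surface of such fibrils, and type IV collagen forms the network of basement membranes. In the inner ear, fibrils with type II, type IX and type XI collagen run through the tectorial membrane and the cartilage of the otic capsule, and mutations in genes of types II, IV, IX and XI are known causes of hearing loss.

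The tissues were the cochlear and the vestibular sensory epithelium of wild-type C57Bl/6J newborns (P0), with male and female tissue pooled and no treatment. RNA came from 20 inner ears of 10 mice, and polyadenylated RNA was sequenced with a kit that keeps strand, in 3 libraries of each tissue. The sources do not say whether the 3 libraries came from separate pools of RNA, so p-values measure the spread between these libraries, which may be technical. The dissected pieces held other tissue: all 6 hair cell markers were past the filter, but so were markers of blood vessels, glia, pigment cells, macrophages and connective tissue, and in such bulk samples fewer cells of a type and less RNA per cell cannot be told apart.

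The libraries held 24464483 to 33664793 counts on genes, so that 1 CPM was 24.5 to 33.7 counts. Each log2 fold change is the vestibule minus the cochlea. Genes were tested by the quasi-likelihood method of edgeR, with p adjusted after Benjamini and Hochberg over all 14723 genes tested, and a gene is called at an adjusted p under 0.05. Levels are in RPKM (the same scaling, per kilobase of gene), the deposited values, which carry no further scaling between libraries.

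The repeat that makes a chain a collagen can be read in the coding sequence. The 54-base stretches shown here come from GENCODE vM21 transcripts (GRCm38) of Col2a1, the most abundant member, and of the gene of each class with the largest log2 fold change by edgeR in either direction, and each is the first stretch within 1 coding exon of the gene's longest unbroken repeat. Capitals mark the first codon of each triplet of the repeat, which is a glycine codon (GGN) and recurs at steps of 3 codons, and a glycine codon at another place in a triplet is left in lower case.
Col2a1, fibrillar, chr15:97996489-97996542, minus strand: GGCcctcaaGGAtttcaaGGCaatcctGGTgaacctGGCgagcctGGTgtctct
Col1a1, fibrillar, chr11:94939904-94939957, plus strand: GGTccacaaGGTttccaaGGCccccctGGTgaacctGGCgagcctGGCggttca
Col4a3, basement membrane, chr1:82643209-82643262, plus strand: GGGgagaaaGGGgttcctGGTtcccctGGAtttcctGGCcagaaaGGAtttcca
Col14a1, FACIT, chr15:55472927-55472980, plus strand: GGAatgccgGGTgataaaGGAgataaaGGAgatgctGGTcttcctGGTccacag
Col25a1, transmembrane, chr3:130577302-130577355, plus strand: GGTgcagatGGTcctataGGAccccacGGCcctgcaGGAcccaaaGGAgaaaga
Col10a1, other, chr10:34394937-34394990, plus strand: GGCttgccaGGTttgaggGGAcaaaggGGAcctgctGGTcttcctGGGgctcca

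The classes differed in how long this repeat ran without a break. In the fibrillar genes the longest unbroken run had 216 to 344 triplets, with a median of 338, and only the genes Col24a1 and Col27a1 of that class were below 337 triplets. In the basement membrane genes it had 30 to 66 triplets, and the repeat was broken into 11 to 27 runs of at least 5 triplets. The FACIT genes had longest runs of 32 to 113 triplets and the transmembrane genes of 40 to 55. Exons of exactly 54 bases, which hold 6 triplets, made up 41.2% to 55.0% of the coding exons of each fibrillar gene and 2.13% to 7.32% of those of each basement membrane gene. The exons of Col2a1, Col1a1, Col14a1 and Col25a1 printed here have 54 bases, while that of Col4a3 has 90 and the coding part of that of Col10a1 has 1886.

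**Figure D1:**
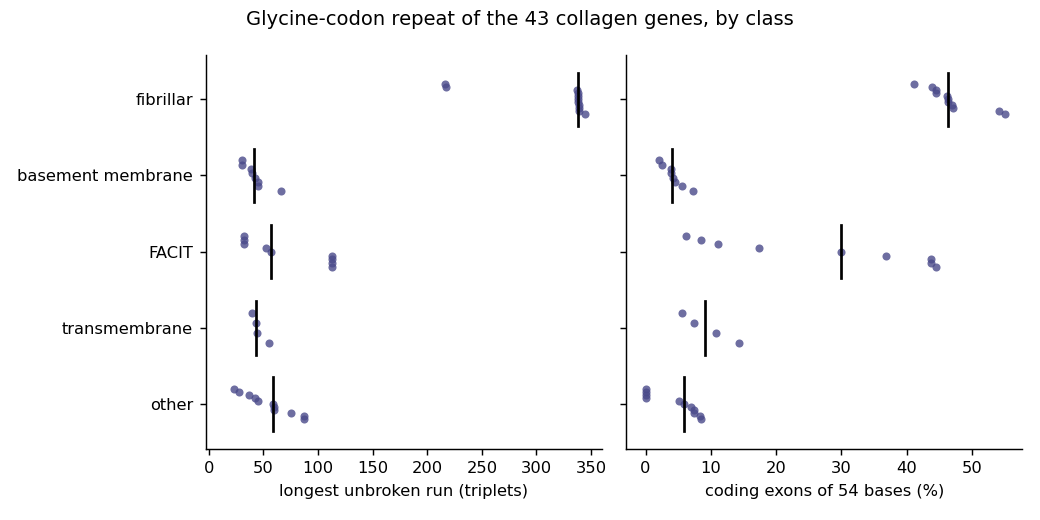
Longest unbroken run of glycine-codon triplets (left) and share of coding exons with 54 bases in % (right) for the 43 collagen genes. Each point is 1 gene, rows are the classes and the black bar is the class median. The fibrillar genes sit apart at 216 triplets or more, and no gene of another class is above 113.

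The collagen genes took up a few percent of every library. Their share of the counts was 2.22%, 2.88% and 3.45% in cochlea libraries 1 to 3 and 4.03%, 3.26% and 3.09% in vestibule libraries 1 to 3. The tissues overlapped, with means of 2.85% ± 0.615 (SD, n = 3) in the cochlea and 3.46% ± 0.501 (SD, n = 3) in the vestibule. The 95% Wilson interval of each library's share was at most 0.00686 percentage points wide on either side, which covers counting error only. The 5 genes Col2a1, Col1a2, Col9a1, Col9a2 and Col11a2 held 66.6% to 73.0% of the collagen counts of a library. Per length, the mean levels of each tissue fell in the order Col2a1, Col9a2, Col9a1 and Col9a3, followed by Col11a2 and Col1a2 in the cochlea and by Col1a2 and Col11a2 in the vestibule. Col2a1 was at rank 18 of the 14722 genes in the deposited RPKM values.

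**Figure D2:**
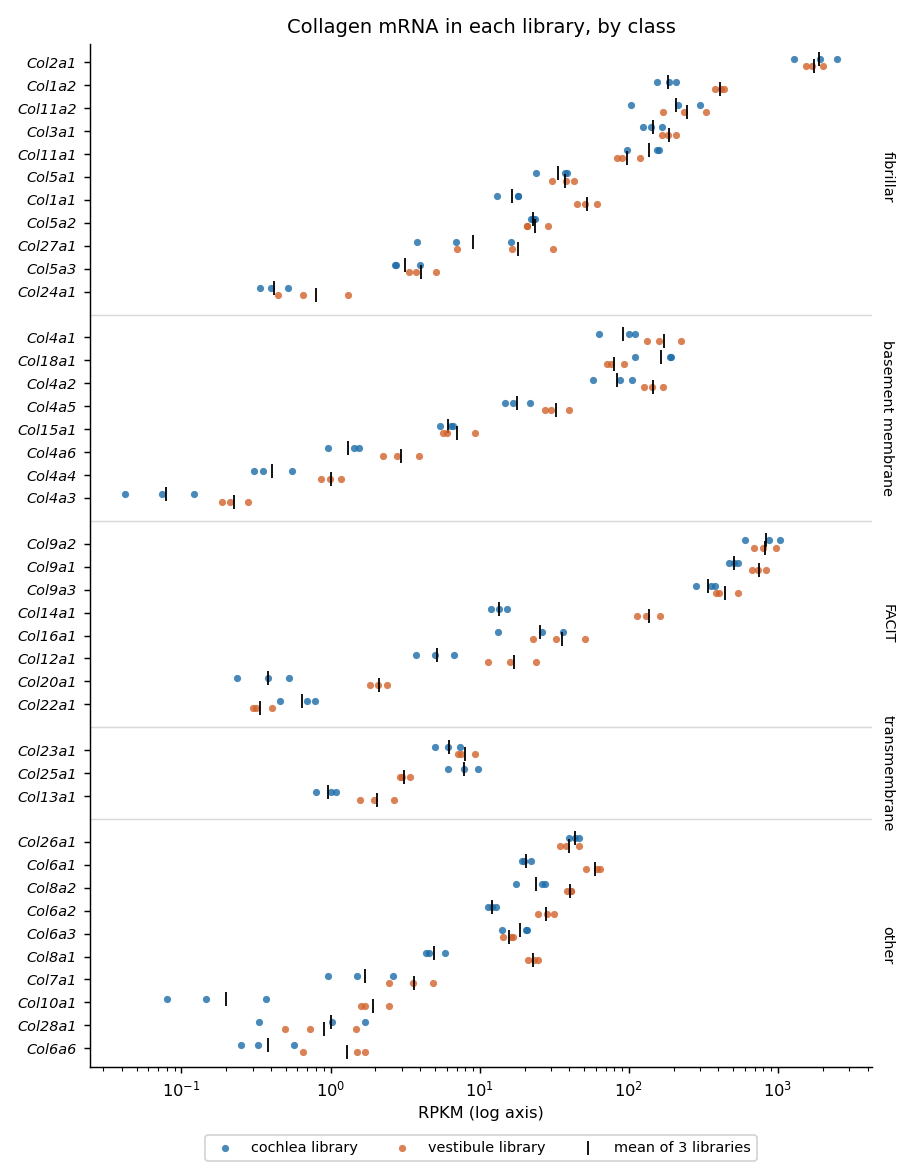
Level of the 40 collagen genes past the filter, in RPKM on a log axis. Each coloured point is 1 library (blue cochlea, orange vestibule), the black bar is the mean of 3 libraries, and genes are ordered within each class by mean level. The levels run from 0.0420 RPKM for Col4a3 to 2488 RPKM for Col2a1, and the orange points of Col14a1, Col8a1 and Col10a1 lie well to the right of the blue ones.

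More collagen genes were higher in the vestibule than in the cochlea. Of the 40 genes tested, 17 were higher in the vestibule and 3, Col18a1, Col22a1 and Col25a1, were higher in the cochlea, while 20 were not called. Over all genes tested, 27.4% were called, 15.8% higher in the vestibule and 11.6% higher in the cochlea. The median log2 fold change of the collagen genes was 0.66, and that of all genes tested was 0.00. The CPM of the tissues did not overlap for 23 of the 40 genes, 20 of them higher in the vestibule, where 41.8% of all genes tested did not overlap. Every tested collagen gene had at least 1 CPM in all 3 vestibule libraries, while Col4a3 and Col10a1 reached it in 1 cochlea library and Col20a1 in 2, so that these 3 passed the filter only through the vestibule. Among the 37 genes with at least 1 CPM in all 6 libraries, 14 were higher in the vestibule and 3 in the cochlea, with a median of 0.45.

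These counts moved with single libraries. Leaving out 1 library at a time gave 12 to 19 genes higher in the vestibule and 2 to 5 higher in the cochlea. The 12 came without cochlea library 1 and the 13 without vestibule library 1. Of the 40 genes, 38 had their highest vestibule CPM in library 1, against 48.8% of all genes tested, and 24 had their lowest cochlea CPM in library 1, against 27.8%. The lowest vestibule CPM was in library 3 for 28 genes, against 50.8%, and the highest cochlea CPM was in library 3 for 24, against 41.9%. Within a tissue the highest CPM of a gene was 1.06 to 5.13 times the lowest in the cochlea, with a median of 1.60, and 1.07 to 4.40 times in the vestibule, with a median of 1.40. What sets these libraries apart was not tested. DESeq2 called the same 20 genes, and it also called Col4a2, Col7a1 and Col9a1 higher in the vestibule and Col11a1 higher in the cochlea.

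**Figure D3:**
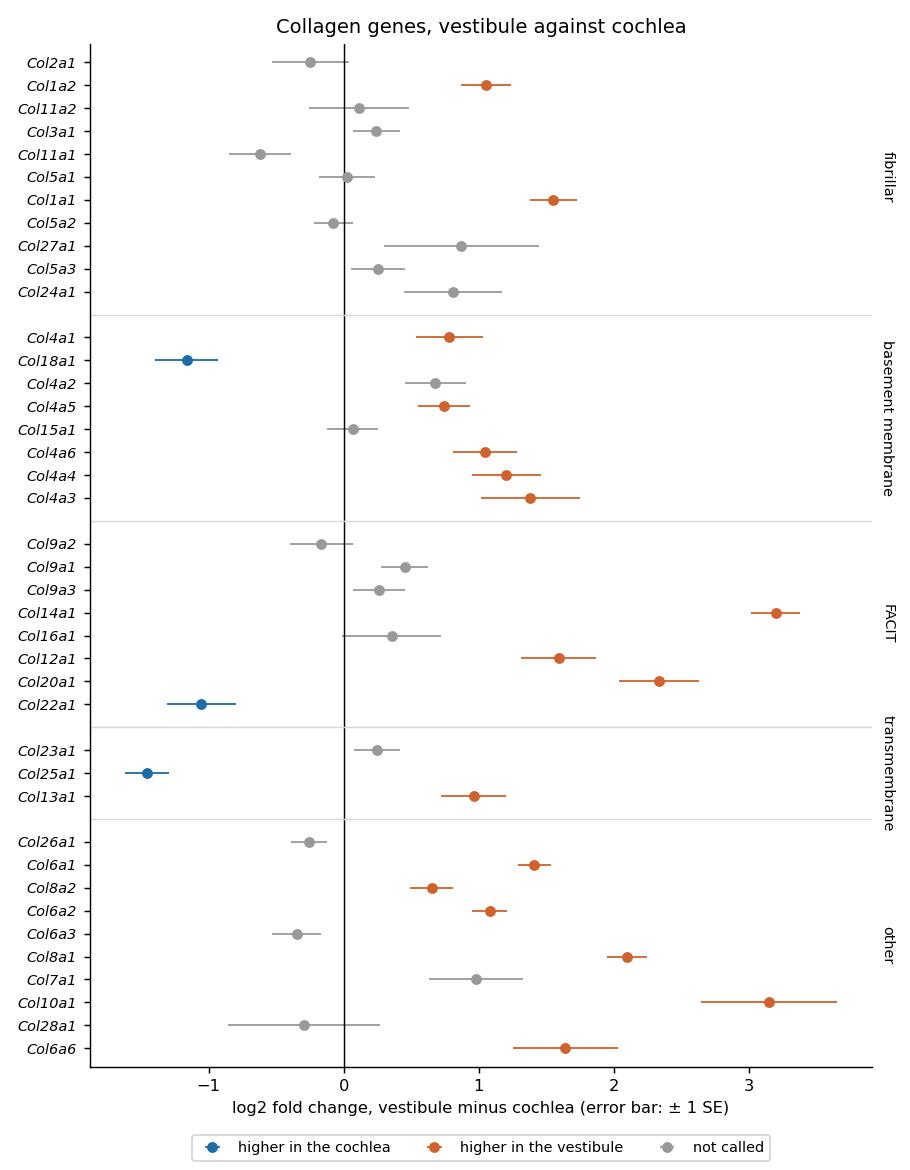
Log2 fold change of the 40 collagen genes, vestibule minus cochlea, with 1 standard error (SE) on either side. Colour gives the call of edgeR's quasi-likelihood test (blue higher in the cochlea, orange higher in the vestibule, grey not called). Orange points appear in every class, from 0.65 for Col8a2 to 3.20 for Col14a1, and the 3 blue points lie between -1.46 and -1.05.

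Among the fibrillar genes the chains of type I collagen, the main collagen of bone and most connective tissue, were higher in the vestibule. Col1a1, which encodes the α1(I) chain, was at 13.1, 18 and 18.1 RPKM in the cochlea and at 61.7, 50.6 and 45.2 RPKM in the vestibule. Col1a2, which encodes the α2(I) chain, was at 206, 154 and 187 RPKM in the cochlea and at 434, 381 and 417 RPKM in the vestibule. All 3 vestibule libraries were above all 3 cochlea libraries for both genes. The log2 fold change was 1.55 (SE 0.17, edgeR adjusted p = 0.000267) for Col1a1 and 1.05 (SE 0.19, edgeR adjusted p = 0.00318) for Col1a2. Both calls held without any single library.

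Type II collagen, the main fibril former of cartilage, had the highest level of all members and was not called. Col2a1 was at 1291, 1921 and 2488 RPKM in the cochlea and at 2016, 1686 and 1534 RPKM in the vestibule. The 3 vestibule values lay within the range of the cochlea, and the log2 fold change was -0.25 (SE 0.28, edgeR adjusted p = 0.559). Of its partners in cartilage fibrils, Col11a1 had 138 ± 35.5 RPKM in the cochlea and 98.0 ± 19.2 RPKM in the vestibule (SD, n = 3), with a log2 fold change of -0.62 (edgeR adjusted p = 0.0805). Without cochlea library 1 that of Col11a1 was -0.83 (edgeR adjusted p = 0.0213). Like Col2a1, Col11a2 was lowest in cochlea library 1 and highest in cochlea library 3, from 104 to 302 RPKM, and it spread from 169 to 332 RPKM in the vestibule. Its log2 fold change was 0.11 (edgeR adjusted p = 0.858). The cartilage markers went both ways beside these genes, with 4 of 7 tested higher in the vestibule and 1 higher in the cochlea, Matn1. Comp, among the 4, passed the filter only through the vestibule. The summed level of the list was 822 to 941 CPM in the cochlea and 632 to 765 CPM in the vestibule. None of the 9 markers was at 0 in all libraries, and their part in the result was not tested.

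The remaining fibrillar genes were not called. Col3a1, the type III chain of skin and vessels, had 145 ± 21.8 RPKM in the cochlea and 186 ± 20.9 RPKM in the vestibule (SD, n = 3). Type V chains, which start and thin type I fibrils, had log2 fold changes of 0.02 (Col5a1), -0.08 (Col5a2) and 0.25 (Col5a3), and the tissues overlapped for all of them. Genes on the opposite strand cover 2.50% of the exon bases of Col5a1. Col27a1, a fibrillar collagen of cartilage, spread from 3.81 to 16.4 RPKM in the cochlea and from 7.03 to 31.0 RPKM in the vestibule, and its log2 fold change of 0.87 had an SE of 0.57 (edgeR adjusted p = 0.300). Leaving out 1 library put that of Col27a1 between 0.31, without vestibule library 1, and 1.58, without cochlea library 3, and none of these passed the test (edgeR adjusted p from 0.0522 to 0.758). Col24a1, a low fibrillar gene with 0.417 ± 0.0935 RPKM in the cochlea and 0.799 ± 0.447 RPKM in the vestibule (SD, n = 3), had a log2 fold change of 0.81 (edgeR adjusted p = 0.136). It was 1.09 (edgeR adjusted p = 0.0461) without vestibule library 3 and 0.32 (edgeR adjusted p = 0.491) without vestibule library 1, and 1 of 12 alternatives called the gene. In the class as a whole 2 of 11 genes were called, 18.2% against 27.4% of all genes tested, with a median log2 fold change of 0.24.

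Of the 8 basement membrane genes 5 were higher in the vestibule and 1 was higher in the cochlea, and the median log2 fold change was 0.76. The share called was 75%, against 27.4% of all genes tested, and Col4a3, among the 5, passed the filter only through the vestibule. The 5 became 2, Col4a4 and Col4a6, without cochlea library 1 or vestibule library 1, and 3 without cochlea library 2 or vestibule library 2. All 5 were type IV genes, and the sixth, Col4a2, had vestibule values above all cochlea values without passing the test. Col4a1 and Col4a2 encode the α1(IV) and α2(IV) chains of nearly all basement membranes. Col4a1 was at 63.4, 101 and 110 RPKM in the cochlea and at 223, 160 and 133 RPKM in the vestibule. Its log2 fold change was 0.78 (SE 0.25, edgeR adjusted p = 0.0472), and it was not called without cochlea library 1 (edgeR adjusted p = 0.131), cochlea library 2 (0.0882), vestibule library 1 (0.132) or vestibule library 2 (0.0950). That of Col4a2, at 57.3, 87.7 and 106 RPKM in the cochlea and 170, 142 and 126 RPKM in the vestibule, was 0.68 (SE 0.23, edgeR adjusted p = 0.0576), and it passed the test without cochlea library 3 (edgeR adjusted p = 0.0258).

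Col4a1 and Col4a2 lie head to head, and RefSeq places their starts 21 bases apart on chromosome 8. The windows from 250 bases before to 50 bases after each start (RefSeq, GRCm38.p6) share 78 bases, printed in capitals, which read as the reverse complement of each other.
Col4a1, chr8:11312777-11313076, minus strand: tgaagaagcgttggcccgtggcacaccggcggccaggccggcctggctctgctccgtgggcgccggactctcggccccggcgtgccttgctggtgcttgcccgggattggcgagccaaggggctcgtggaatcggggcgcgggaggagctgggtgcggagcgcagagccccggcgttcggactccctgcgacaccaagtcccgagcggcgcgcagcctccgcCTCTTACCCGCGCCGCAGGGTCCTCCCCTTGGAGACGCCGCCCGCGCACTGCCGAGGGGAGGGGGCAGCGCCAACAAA
Col4a2, chr8:11312555-11312854, plus strand: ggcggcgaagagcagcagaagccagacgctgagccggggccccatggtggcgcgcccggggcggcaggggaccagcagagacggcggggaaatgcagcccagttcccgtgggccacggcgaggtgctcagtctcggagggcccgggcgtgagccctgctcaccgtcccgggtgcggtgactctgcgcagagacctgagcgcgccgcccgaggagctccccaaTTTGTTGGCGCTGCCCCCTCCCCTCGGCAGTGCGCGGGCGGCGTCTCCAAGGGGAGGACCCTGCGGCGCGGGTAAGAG
The ratio of Col4a1 to Col4a2, per length, was close to 1 in every library, at 1.11, 1.15 and 1.03 in the cochlea libraries and 1.31, 1.12 and 1.06 in those of the vestibule. Each gene's own level ranged more widely, from 63.4 to 223 RPKM for Col4a1 and from 57.3 to 170 RPKM for Col4a2.

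The other type IV pairs had far lower levels. Col4a3 and Col4a4 encode chains of the network that also holds α5(IV), known from the kidney glomerulus and the cochlea and mutated in Alport syndrome. Col4a3 was at 0.0420, 0.0742 and 0.121 RPKM in the cochlea and 0.279, 0.212 and 0.186 RPKM in the vestibule, from 10 to 35 and 47 to 93 counts. No cochlea library reached a vestibule library, and the log2 fold change was 1.38 (SE 0.37, edgeR adjusted p = 0.0228), with edgeR adjusted p between 0.0521 and 0.0836 without cochlea library 1, cochlea library 2, vestibule library 1 or vestibule library 2. Of its exon bases 5.65% are shared with a gene on the opposite strand, and the strand setting of the counting is not given in the sources used here. Overlaps with other genes on either strand cover 0.174% to 0.982% of the exon bases of Col4a1, Col4a2, Col7a1, Col10a1, Col15a1 and Col22a1. Col4a4 was at 0.305, 0.350 and 0.552 RPKM in the cochlea and 1.17, 0.989 and 0.869 RPKM in the vestibule, without overlap. It had a log2 fold change of 1.20 (SE 0.26, edgeR adjusted p = 0.00854).

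On the X chromosome, Col4a5 and Col4a6 encode the α5(IV) and α6(IV) chains. Col4a6 was at 0.966, 1.43 and 1.56 RPKM in the cochlea and 3.90, 2.80 and 2.25 RPKM in the vestibule, without overlap. The difference on the log2 scale was 1.05 (SE 0.24, edgeR adjusted p = 0.0112). Col4a5 had 17.7 ± 3.53 RPKM in the cochlea and 32.5 ± 6.42 RPKM in the vestibule (SD, n = 3) and a log2 fold change of 0.74 (SE 0.20, edgeR adjusted p = 0.0222). It was not called without cochlea library 1 (edgeR adjusted p = 0.0799) or vestibule library 1 (0.0669).

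Collagens XV and XVIII carry the domain from which endostatin-like fragments are cut, and only Col18a1 (chr10:77052178-77166548) was called. It was at 110, 192 and 191 RPKM in the cochlea and at 92.4, 76.6 and 71.5 RPKM in the vestibule. Every cochlea library was above every vestibule library, and the log2 fold change was -1.16 (SE 0.24, edgeR adjusted p = 0.00636), which is a level 2.24-fold higher in the cochlea. Col15a1 had 6.15 ± 0.609 RPKM in the cochlea and 7.03 ± 1.99 RPKM in the vestibule (SD, n = 3), with a log2 fold change of 0.07. Beside this class, 5 of 7 endothelial markers were higher in the vestibule and 1, Emcn, was higher in the cochlea, and the summed level of the list was 187 to 258 CPM in the cochlea and 419 to 592 CPM in the vestibule. Of the mural cell markers 3 of 5 were higher in the vestibule and 1, Notch3, in the cochlea, with sums of 339 to 474 CPM and 415 to 527 CPM. No marker of these lists was at 0 in all libraries, and their part in the result was not tested.

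The largest difference among the FACIT genes, by edgeR and under every alternative run, was that of Col14a1, which spans chr15:55307750-55520803 in GENCODE vM21 (GRCm38). Col14a1, whose product binds the surface of type I fibrils in tendon, skin and other dense connective tissue, was at 13.5, 15.3 and 11.9 RPKM in the cochlea and at 163, 131 and 114 RPKM in the vestibule. The log2 fold change was 3.20 (SE 0.18, edgeR adjusted p = 8.11e-06), a level 9.17-fold higher in the vestibule. Leaving out single libraries or changing the method kept it between 3.09 and 3.33. Col12a1, a related FACIT collagen of dense connective tissue, was at 3.75, 4.99 and 6.70 RPKM in the cochlea and 23.9, 15.9 and 11.3 RPKM in the vestibule. It was higher in the vestibule by 1.59 on the log2 scale (SE 0.28, edgeR adjusted p = 0.00292). Col20a1 was low, at 0.236, 0.384 and 0.525 RPKM in the cochlea and 2.40, 1.83 and 2.07 RPKM in the vestibule, and its log2 fold change was 2.33 (SE 0.30, edgeR adjusted p = 0.000526). None of these 3 genes had overlapping tissues. Of the exon bases of Col20a1 1.54% are shared with a gene on the same strand.

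Col22a1, a FACIT collagen known from junctions of muscle and tendon, went the other way. Its direction is not settled beyond these libraries. The paper's supplement lists it among the few genes higher in the vestibule in the authors' earlier microarray study and higher in the cochlea here. Col22a1 was low, at 0.455, 0.696 and 0.783 RPKM in the cochlea and 0.402, 0.315 and 0.300 RPKM in the vestibule. The cochlea libraries were all above the vestibule libraries, the nearest pair being 0.455 and 0.402 RPKM. Its log2 fold change was -1.05 (SE 0.26, edgeR adjusted p = 0.0159), and it was not called without cochlea library 2 (edgeR adjusted p = 0.0621) or vestibule library 2 (0.0798). Skeletal muscle markers were at 2.98 to 214 CPM in sum in the cochlea and 6.24 to 21.3 CPM in the vestibule, with the high value in cochlea library 3, and none of the 3 tested was called. Without that library the log2 fold change of Col22a1 was -0.92 (edgeR adjusted p = 0.0336), and the part of these markers in the result was not tested.

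The 3 type IX genes, whose chains coat type II fibrils, were among the 4 highest members and were not called by edgeR. Col9a1 was at 505, 470 and 545 RPKM in the cochlea and 839, 676 and 741 RPKM in the vestibule, without overlap, and had a log2 fold change of 0.45 (SE 0.17, edgeR adjusted p = 0.0902). It was called by DESeq2 (adjusted p = 0.0117) and with library sizes alone (edgeR adjusted p = 0.0231). Col9a2 was at 605, 869 and 1040 RPKM in the cochlea and 968, 790 and 691 RPKM in the vestibule, and its log2 fold change was -0.17 (edgeR adjusted p = 0.639). That of Col9a3, with 338 ± 51.3 and 442 ± 84.7 RPKM (SD, n = 3), was 0.26 (edgeR adjusted p = 0.360). Opposite-strand exons of Tcfl5 cover 6.07% of the exon bases of Col9a3. Col16a1 had 25.3 ± 11.6 RPKM in the cochlea and 35.5 ± 14.3 RPKM in the vestibule (SD, n = 3) and was not called. Col19a1 was under the filter, with 0, 5 and 3 counts in the cochlea libraries and 5, 2 and 1 in those of the vestibule. In the class, 3 of the 8 tested were higher in the vestibule, 1 higher in the cochlea, and the median log2 fold change was 0.40. The share called was 50%, against 27.4% of all genes tested, and Col20a1, among the 3, passed the filter only through the vestibule.

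Of the transmembrane collagens, whose ectodomains can be shed from the cell surface, 3 were tested and 1 was higher in each tissue. The share called was 66.7%, against 27.4% of all genes tested. Col25a1 (chr3:130131501-130599877), known from neurons and from the innervation of muscle, was at 7.81, 6.13 and 9.70 RPKM in the cochlea and at 3.4, 3.00 and 2.93 RPKM in the vestibule. The tissues did not overlap. Its log2 fold change of -1.46 (SE 0.16, edgeR adjusted p = 0.000262), a level 2.74-fold higher in the cochlea, was the lowest of all members. Beside it, the neuron markers summed to 128 to 388 CPM in the cochlea and 101 to 281 CPM in the vestibule. Of the 5, Tubb3 and Prph were higher in the cochlea, and none was at 0 in all libraries. Prph passed the filter only through the cochlea, with 0.903 CPM in vestibule library 3. The part of the neuron markers in the result was not tested. Col13a1, found at cell junctions and the neuromuscular synapse, was at 0.802, 1.01 and 1.10 RPKM in the cochlea and 2.65, 1.57 and 1.95 RPKM in the vestibule, without overlap. It had a log2 fold change of 0.96 (SE 0.24, edgeR adjusted p = 0.0173), and it was not called without cochlea library 1 (edgeR adjusted p = 0.0628) or vestibule library 1 (0.0604). Col23a1 was at 7.44, 6.14 and 5.05 RPKM in the cochlea and 9.37, 7.46 and 7.21 RPKM in the vestibule, overlapped and was not called. Col17a1, the collagen of hemidesmosomes, was under the filter with 9, 9 and 14 counts in the cochlea libraries and 20, 8 and 13 in those of the vestibule.

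Of the 11 other collagens, 10 were tested and 6 were higher in the vestibule, with a median log2 fold change of 1.03. The share called was 60%, against 27.4% of all genes tested. The genes of the network-forming collagens VIII and X, with 2 coding exons each, are among the 6, and Col10a1 passed the filter only through the vestibule. Col8a1, a collagen of endothelial and corneal basement layers, was at 5.88, 4.58 and 4.34 RPKM in the cochlea and at 24.5, 23.3 and 21.0 RPKM in the vestibule. The libraries of a tissue lay close together, and the log2 fold change was 2.1 (SE 0.15, edgeR adjusted p = 2.07e-05). Its partner Col8a2 had 23.8 ± 5.37 RPKM in the cochlea and 40.4 ± 1.61 RPKM in the vestibule (SD, n = 3). The log2 fold change of Col8a2 was 0.65 (SE 0.16, edgeR adjusted p = 0.0161), and without vestibule library 2 it was not called (edgeR adjusted p = 0.0597).

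Col10a1, the collagen of hypertrophic cartilage before it turns to bone, was at 0.147, 0.369 and 0.0795 RPKM in the cochlea and at 1.70, 1.60 and 2.45 RPKM in the vestibule, from 7 to 33 and from 128 to 195 counts. The log2 fold change was 3.15 (SE 0.50, edgeR adjusted p = 0.00181). Without cochlea library 2, the highest of the cochlea, it was 4.04, and the other alternatives kept it between 2.73 and 3.38. Beside it and type I collagen, 3 of the 4 bone markers tested were higher in the vestibule, Ibsp, Spp1 and Alpl. Ibsp passed the filter only through the vestibule, with 1.23, 0.486 and 0.205 CPM in the cochlea. The summed level of the bone list was 54.1 to 218 CPM in the cochlea and 441 to 705 CPM in the vestibule. Most of it was Spp1, with 46.1 to 206 CPM and 411 to 661 CPM, and Bglap and Dmp1 were under the filter. None of the 6 genes of the list was at 0 in all libraries, and their part in the result was not tested.

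Type VI collagen forms beaded microfilaments around cells, from an α1(VI) and an α2(VI) chain and one more chain, which in the mouse is α3(VI), α4(VI), α5(VI) or α6(VI). Col6a1 was at 22.0, 19.8 and 19.3 RPKM in the cochlea and 63.8, 61.6 and 51.8 RPKM in the vestibule, with a log2 fold change of 1.41 (SE 0.12, edgeR adjusted p = 6.98e-05). Col6a2 had 12.2 ± 0.740 RPKM in the cochlea and 28.1 ± 3.47 RPKM in the vestibule (SD, n = 3), and its log2 fold change was 1.08 (SE 0.13, edgeR adjusted p = 0.000386). Neither gene's tissues overlapped. Of the genes for that last chain Col6a3, Col6a5 and Col6a6 are among the members, and Col6a4 was not analysed here. Col6a6 was at 0.324, 0.252 and 0.565 RPKM in the cochlea and 1.72, 1.51 and 0.658 RPKM in the vestibule. The log2 fold change was 1.64 (SE 0.39, edgeR adjusted p = 0.0137), and it was not called without cochlea library 1 (edgeR adjusted p = 0.0527) or cochlea library 2 (0.0663). Col6a3 had 18.6 ± 3.76 RPKM in the cochlea and 15.9 ± 1.25 RPKM in the vestibule (SD, n = 3), with a log2 fold change of -0.35 (edgeR adjusted p = 0.193), and of -0.52 (edgeR adjusted p = 0.0466) without cochlea library 1. Col6a5 had at most 3 counts in any library.

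The last members were not called. Col26a1, a collagen of uncertain role, was at 40.0, 43.7 and 46.6 RPKM in the cochlea and 46.1, 38.0 and 34.8 RPKM in the vestibule, with a log2 fold change of -0.26 (edgeR adjusted p = 0.193). Col7a1, which makes the anchoring fibrils under epithelia, had 1.70 ± 0.852 RPKM in the cochlea and 3.66 ± 1.21 RPKM in the vestibule (SD, n = 3), and a log2 fold change of 0.98 (edgeR adjusted p = 0.0698). Without cochlea library 3 it passed the test (edgeR adjusted p = 0.00853), as it did without vestibule library 3 (0.0479). Col28a1, known from peripheral nerve, spread from 0.331 to 1.69 RPKM in the cochlea and from 0.496 to 1.47 RPKM in the vestibule.

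Chains of one collagen type are built into the same molecules, so their ratios were compared in each library, per length, in 11 pairs. The tissues did not overlap for 5 of the 11 ratios, some of which share a gene, where 41.8% of all genes tested did not overlap in their own CPM. With 3 libraries against 3 the two-sided exact permutation test cannot go below 0.10, so no ratio could pass 0.05, and the lowest value after Benjamini-Hochberg adjustment over the 11 was 0.22. The ratio of Col6a3 to Col6a1 was 0.646, 1.05 and 1.07 in the cochlea libraries and 0.255, 0.235 and 0.325 in those of the vestibule. That of Col8a1 to Col8a2 was 0.215, 0.260 and 0.165 in the cochlea libraries and 0.592, 0.566 and 0.546 in those of the vestibule. Each of these differed by over 2-fold between the tissue means without overlap. The ratio of Col6a2 to Col6a1 had means of 0.599 ± 0.0701 and 0.475 ± 0.0155 in cochlea and vestibule (SD, n = 3). That of Col9a2 to Col9a1 was 1.65 ± 0.394 and 1.08 ± 0.132, and that of Col11a1 to Col11a2 was 0.728 ± 0.198 and 0.414 ± 0.0706. All 5 of these had an exact p of 0.1.

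For the other 6 ratios the tissues overlapped. Col1a1 was at 0.0922 ± 0.0268 of the level of Col1a2 in the cochlea and at 0.128 ± 0.0174 in the vestibule (SD, n = 3). Type I collagen is known to hold more α1(I) than α2(I) chains, so this order of the mRNA levels is opposite to that of the chains, and the gene lengths behind it were 6551 bases for Col1a1 and 12115 bases for Col1a2. How far the counting sets this ratio was not tested. Col4a6 was at 0.0749 ± 0.0164 and 0.0915 ± 0.0143 of the level of Col4a5, and Col4a3 at 0.190 ± 0.0452 and 0.222 ± 0.0139 of the level of Col4a4. The ratio of Col5a1 to Col5a2 was 1.47 ± 0.369 and 1.59 ± 0.192, and that of Col9a3 to Col9a1 was 0.669 ± 0.102 and 0.584 ± 0.0526.

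**Figure D4:**
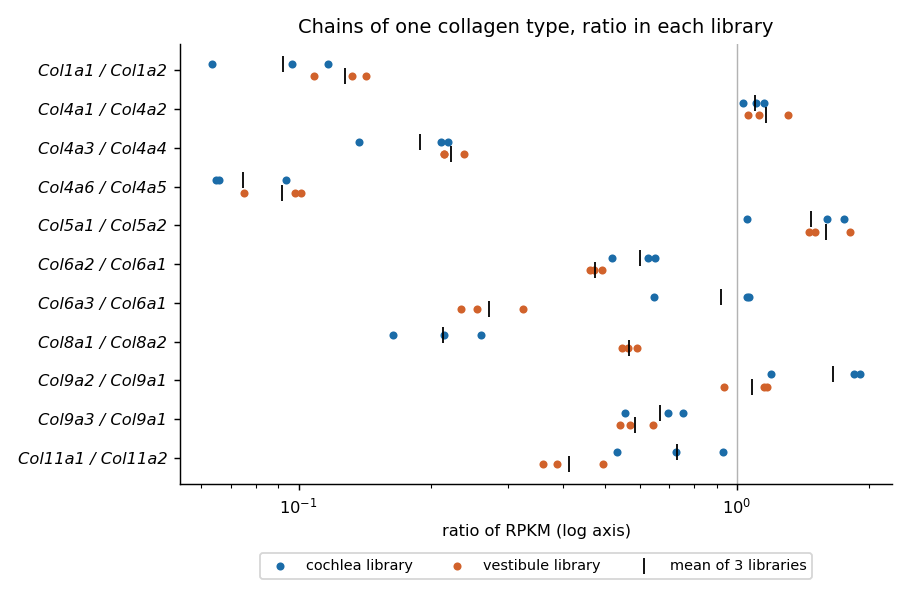
Ratio of the RPKM of 2 chains of one collagen type in each library, on a log axis, for 11 pairs. Blue points are cochlea libraries, orange points vestibule libraries, black bars the means of 3, and the grey line marks equal levels. The 2 colours are apart for Col6a2/Col6a1, Col6a3/Col6a1, Col8a1/Col8a2, Col9a2/Col9a1 and Col11a1/Col11a2, and the pair Col4a1/Col4a2 sits between 1.03 and 1.31.

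Promoter windows were at hand for 34 of the 43 members, in 37 windows of 300 bases (RefSeq, GRCm38.p6). The windows of Col1a2 and Col10a1, both higher in the vestibule, and of Col25a1, the member with the lowest log2 fold change, are printed with every match on either strand in capitals, to the TATA box TATAAA, the CCAAT box CCAAT or the GC box GGGCGG.
Col1a2, chr6:4505368-4505667, plus strand: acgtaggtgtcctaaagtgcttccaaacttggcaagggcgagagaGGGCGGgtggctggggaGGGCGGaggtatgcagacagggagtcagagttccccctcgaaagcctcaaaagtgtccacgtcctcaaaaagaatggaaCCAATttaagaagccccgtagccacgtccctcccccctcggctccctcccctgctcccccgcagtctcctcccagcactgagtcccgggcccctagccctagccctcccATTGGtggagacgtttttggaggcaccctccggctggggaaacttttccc
Col10a1, chr10:34389731-34390030, plus strand: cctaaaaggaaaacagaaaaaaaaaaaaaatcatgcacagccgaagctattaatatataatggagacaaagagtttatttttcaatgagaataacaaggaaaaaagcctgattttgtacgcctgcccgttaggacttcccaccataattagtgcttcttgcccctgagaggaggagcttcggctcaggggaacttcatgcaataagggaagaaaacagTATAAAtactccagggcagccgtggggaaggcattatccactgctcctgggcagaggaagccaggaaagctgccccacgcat
Col25a1, chr3:130180595-130180894, plus strand: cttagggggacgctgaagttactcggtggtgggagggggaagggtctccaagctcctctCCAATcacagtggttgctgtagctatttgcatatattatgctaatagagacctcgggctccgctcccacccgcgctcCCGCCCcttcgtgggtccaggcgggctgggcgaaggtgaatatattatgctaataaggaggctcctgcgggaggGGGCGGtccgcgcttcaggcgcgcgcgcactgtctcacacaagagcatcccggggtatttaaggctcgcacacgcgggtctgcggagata
Col10a1 held a TATA box whose first base is at -32 from the start, and neither of the other motifs. Col1a2 and Col25a1 held CCAAT and GC boxes and no TATA box. For both, the RefSeq start of the window lies inside the gene's span in GENCODE vM21. It is at 130180845 for Col25a1, whose span begins at 130131501, and at 4505618 for Col1a2, whose span begins at 4504814. Over all members the TATA box was in 13.5% of windows, as against 13.6% of all 32851 windows in the table, the CCAAT box in 32.4% against 37.4% and the GC box in 59.5% against 35.7%. The 5 genes with a TATA box were Col3a1, Col10a1, Col11a2, Col13a1 and Col17a1. A match is a description of the letters in the window only.

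Collagen chains pass through a long line of enzymes before they form fibrils, and 51 genes of that line and of its control were followed, of which 49 were tested. Of these, 10 were higher in the cochlea and 6 in the vestibule, and the median log2 fold change was -0.11. That is 32.7% called, near the 27.4% of all genes tested, of which 11.6% were higher in the cochlea and 15.8% in the vestibule. The chains themselves were mostly higher in the vestibule where called, and the called processing genes went both ways. These are counts of different genes, and no test compared them.

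Prolyl hydroxylases stabilise the triple helix. P4ha2, a catalytic subunit of prolyl 4-hydroxylase, was at 5.99, 5.85 and 5.78 RPKM in the cochlea and 0.975, 1.05 and 1.25 RPKM in the vestibule. On the log2 scale the difference was -2.54 (SE 0.17, edgeR adjusted p = 1.5e-05). P4ha3, the third such subunit, was at 25.0, 33.3 and 28.0 RPKM in the cochlea and 19.3, 17.2 and 13.5 RPKM in the vestibule, with a log2 fold change of -0.92 (edgeR adjusted p = 0.00368). Neither overlapped between tissues, while P4ha1 and the shared subunit P4hb were not called. In all, 2 of the 9 tested were called, 22.2% against 27.4% of all genes tested, and P3h2 was under the filter. Of the 5 genes for hydroxylation and glycosylation of lysine, Plod3 (log2 fold change -0.71, edgeR adjusted p = 0.0115) and Colgalt2 (-0.67, edgeR adjusted p = 0.00509) were higher in the cochlea. Plod3 was at 20.9, 28.9 and 26.7 RPKM in the cochlea and 15.9, 17.4 and 17.5 RPKM in the vestibule. Colgalt2 was at 53.7, 46.5 and 62.0 RPKM and 39.2, 34.9 and 36.3 RPKM.

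The chaperones and export factors of procollagen, among them Serpinh1 (HSP47), gave no call among 7 genes by edgeR, with 1 gene, Fkbp10, at an unadjusted p under 0.05. DESeq2 called Fkbp10 as well, and limma-voom called none. The 8 collagen receptors and uptake receptors also gave no call by edgeR, DESeq2 or limma-voom, with Lair1 alone at an unadjusted p under 0.05.

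Propeptide removal was the list with the most calls, 6 of 8, in both directions, which is 75% against 27.4% of all genes tested. Tll2, among the 6, passed the filter only through the cochlea, with 0.942 CPM in vestibule library 3. Pcolce2, an enhancer of the C-proteinase, was at 28.0, 23.7 and 29.8 RPKM in the cochlea and 2.39, 1.82 and 2.18 RPKM in the vestibule. The log2 fold change was -3.79 (SE 0.16, edgeR adjusted p = 3.47e-06). Its relative Pcolce was higher in the vestibule, by 0.88 (edgeR adjusted p = 0.00211). The tolloid-like proteinases split in the same way. Tll1 was at 0.558, 0.305 and 0.809 RPKM in the cochlea and 4.30, 3.95 and 4.13 RPKM in the vestibule, with a log2 fold change of 2.78 (SE 0.30, edgeR adjusted p = 0.000218), and Tll2 had -1.93 (SE 0.35, edgeR adjusted p = 0.00363). The N-proteinases Adamts2 (-1.38) and Adamts14 (-1.54) were higher in the cochlea, while Adamts3 and the main C-proteinase Bmp1 were not called.

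The cross-linking list had 1 gene called of 5 tested, 20% against 27.4% of all genes tested, and Loxl4 was under the filter. The gene called was Lox, a lysyl oxidase that cross-links fibrils. It was at 34.5, 31.4 and 32.3 RPKM in the cochlea and 57.1, 62.6 and 68.8 RPKM in the vestibule, and had a log2 fold change of 0.83 (SE 0.14, edgeR adjusted p = 0.00229). Of 7 transcription factors known to drive collagen genes, the bone factors Sp7 (log2 fold change 1.71, edgeR adjusted p = 0.00063) and Runx2 (1.35, edgeR adjusted p = 0.00443) and the tendon factor Scx (0.58, edgeR adjusted p = 0.0207) were higher in the vestibule. Sp7 was at 0.538, 0.506 and 0.475 RPKM in the cochlea and 1.60, 2.08 and 1.69 RPKM in the vestibule, and Runx2 at 0.622, 0.579 and 1.07 RPKM and 1.77, 2.31 and 2.20 RPKM. The cartilage factors Sox9 (-1.04, edgeR adjusted p = 0.00189) and Sox5 (-1.14, edgeR adjusted p = 0.0133) were higher in the cochlea. Supporting cells of the cochlea also express Sox9, and 5 of 6 supporting cell markers were higher in the cochlea. The sums of the list were 1174 to 1297 CPM against 448 to 494 CPM. Hes5, among the 5, passed the filter only through the cochlea, with 0.393 to 0.662 CPM in the vestibule. The part of these markers in the result was not tested.

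**Figure D5:**
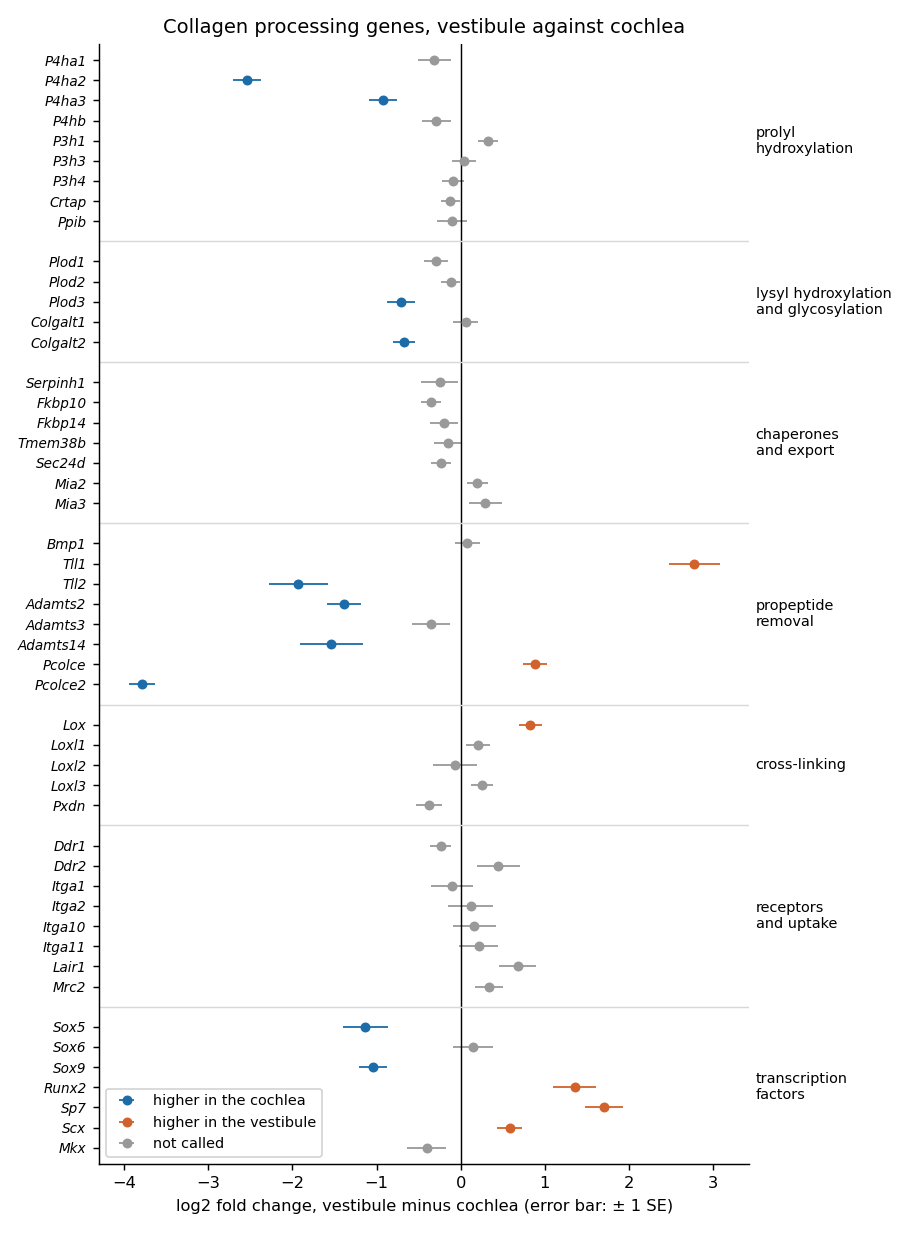
Log2 fold change of 49 genes that process, cross-link, bind or control collagens, vestibule minus cochlea, with 1 SE on either side. Colours give the call of edgeR's quasi-likelihood test (blue higher in the cochlea, orange higher in the vestibule, grey not called). The values run from -3.79 for Pcolce2 to 2.78 for Tll1, and the lists of chaperones and of receptors hold grey points only.

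The lists of other cell types in the dissected pieces differed between the tissues too. All 5 macrophage markers were higher in the vestibule, with sums of 314 to 347 CPM against 84.2 to 99.0 CPM. So were all 4 melanocyte markers, with sums of 238 to 281 CPM against 30.1 to 59.5 CPM. Mlana, among the 4, passed the filter only through the vestibule, with 0.445 to 0.491 CPM in the cochlea. The mesenchyme markers, which belong to the cells that make most type I, III, VI, XII and XIV collagen, did not move together. Of the 9, Pdgfra and Tbx18 were higher in the vestibule and Lum and Pou3f4 were higher in the cochlea, and their sum was 1977 to 2263 CPM in the cochlea and 1901 to 2110 CPM in the vestibule. No marker in these lists was at 0 in all libraries. Their part in the levels of the collagen genes was not tested.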

How the data were processed

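Per the labels, the authors dissected cochlear and vestibular sensory epithelium and made 3 libraries of each. The submitters' processing notes name TopHat2 2.1.0, SAMtools 0.1.18, HTSeq 0.5.4p5, edgeR 3.4.2 and GRCm38. The deposited counts are whole reads per Ensembl gene with no normalization, and their summary lines (18.5% to 20.6% of a library) were left out. The deposited log2 RPKM matrix was turned back to linear RPKM for levels; its values were found to be scaled by library size without TMM.

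The test was edgeR's quasi-likelihood test (edgeR 4.0.16, R 4.3.3; TMM, Benjamini-Hochberg, FDR 0.05, no block) on genes with at least 1 CPM in 3 libraries. It was also run on simulated data. Alternatives were DESeq2 1.42.0, limma-voom (limma 3.58.1), other scalings, no filter, a replicate block and leaving out each library. Motifs were searched in RefSeq promoter windows, and triplets in the longest coding sequence of each gene in GENCODE vM21. Python 3.11.15 and matplotlib 3.10.9 drew the figures.

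The members and lists were chosen with earlier results of these data known. Genes are named by rule: with values in every library, the called members with the 3 largest changes in each direction of a class and its 2 highest members; chain partners side by side; of the processing genes, the 2 largest called changes of each list; other members with fewer values. Processing genes and markers named beyond this were chosen after their values were seen.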

Additional observations from a re-analysis of the deposited data

How the results depend on the processing

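The number of collagen genes higher in the vestibule (17) was 16 to 20 with DESeq2's size factors, library sizes alone, no filter, DESeq2 or limma-voom, and that in the cochlea (3) was 3 or 4. With the replicate block they were 10 and 2, and 12 of the 20 calls were kept. Whether the numbers pair the libraries is not known. Deviations of same-numbered libraries correlated at -0.18, -0.26 and -0.47, and those of differently numbered libraries at -0.27 to 0.41. Each deviation is taken from the mean of only 3 libraries, so these correlations depend on each other and cannot decide a pairing. Leaving out 1 library gave 12 to 19 in the vestibule and 2 to 5 in the cochlea, with the 5 without cochlea library 1. For the processing genes it gave 9 to 10 higher in the cochlea and 5 to 7 in the vestibule, and for the shares 2.55% to 3.17% and 3.17% to 3.64%. With the summary lines in the denominator both shares were lower, 2.29% in the cochlea and 2.78% in the vestibule. Over all genes tested, library sizes alone put the median fold change at 0.13 (log2), and values under that scaling are to be read against it.

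No called collagen gene changed direction under any of these alternatives. Among genes not called, the log2 fold change of Col5a2 was 0.047 with library sizes alone. Leaving out 1 library put Col5a1 between -0.183 and 0.146, Col5a2 between -0.196 and 0.0234, Col11a2 between -0.220 and 0.455, Col15a1 between -0.134 and 0.218, and Col28a1 between -0.797 and 0.252. The cause was not tested. With at least 1 CPM asked of all 6 libraries, 37 members passed, and 40 with 1 library. At 3 counts or fewer in any library, no difference in Col6a5 was detectable at this depth.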
